A study of Homo sapiens with 8 samples.

Results

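DKK1 and its partners at the Wnt co-receptors form a set of 10 genes of the 20219 gene symbols on the arrays, and the features tested were 11 of 29141, since DKK3 had 2 features and every other member 1. The members were chosen by name. They are the 4 Dickkopf genes DKK1, DKK2, DKK3 and DKK4, the Dickkopf receptors KREMEN1 and KREMEN2, the co-receptors LRP5 and LRP6, the secreted antagonist SFRP1 and the intracellular inhibitor AXIN2. DKK1 was selected on values of these same arrays. Which comparison selected it is not given, and it was assumed here to be knockdown cells given IL-13 against mock-treated control cells, the only comparison in which a member was called. Its differences are therefore described without a test, apart from the interaction, which in this balanced design is independent of that comparison but not of a comparison of single groups that share a line or a treatment.

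RNA came from MIV-Luc cells, a luciferase-expressing line of MCF10CA1a, the metastatic member of the MCF10A series of human basal-like breast cell lines. All cells carried a lentiviral vector with a hairpin and had been selected with puromycin as a pool. The shSCR cells held a scrambled hairpin and the shIL13Rα2 cells held 1 hairpin (#2) against the interleukin-13 receptor IL13RA2, so an effect of the knockdown cannot be told apart from any other effect of that hairpin. Each line was mock-treated or given IL-13 at 20 ng/ml for 16 h, which made 4 groups of 2 arrays, named here arrays 1 and 2 (shSCR, mock), 3 and 4 (shSCR, IL-13), 5 and 6 (shIL13Rα2, mock) and 7 and 8 (shIL13Rα2, IL-13). Values are log2 expression, so a difference of 1 is a doubling, and levels are not comparable between genes. The small number of arrays limits the precision.

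Wnt ligands bind a Frizzled receptor together with LRP5 or LRP6, which stabilises β-catenin and switches on genes through TCF and LEF factors. DKK1, DKK2 and DKK4 are secreted proteins that occupy LRP5 and LRP6 and so keep Wnt from forming that complex, with KREMEN1 and KREMEN2 as further receptors, whereas SFRP1 binds Wnt itself. DKK1 and AXIN2 are both known targets of β-catenin that act as feedback inhibitors, and DKK1 has been studied in breast cancer for its part in metastasis to bone and lung. IL13RA2 is known mainly as a decoy receptor that holds IL-13 away from the receptor that activates STAT6.

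The stretch just before the start of DKK1 is shown because the gene is a known Wnt target and the member whose level differed most with both treatments. Reference windows were found for 2 of the 10 members, DKK1 and LRP5, and the 250 bases before each start are given 5′ to 3′ from RefSeq on GRCh38.p14, on the plus strand, at chr10:52314031-52314280 for DKK1 and chr11:68312341-68312590 for LRP5. Capitals mark matches on either strand to the TCF/LEF cores CTTTGA or CTTTGT.
DKK1: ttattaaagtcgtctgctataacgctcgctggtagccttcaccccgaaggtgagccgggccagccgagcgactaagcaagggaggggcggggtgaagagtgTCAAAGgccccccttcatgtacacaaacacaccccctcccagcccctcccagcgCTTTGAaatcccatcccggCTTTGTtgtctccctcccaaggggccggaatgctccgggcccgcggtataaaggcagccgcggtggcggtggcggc
LRP5: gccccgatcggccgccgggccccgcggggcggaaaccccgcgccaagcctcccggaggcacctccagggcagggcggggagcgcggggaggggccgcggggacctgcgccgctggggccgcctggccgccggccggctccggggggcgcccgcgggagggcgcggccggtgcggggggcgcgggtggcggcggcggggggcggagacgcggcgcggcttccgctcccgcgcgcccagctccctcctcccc
The DKK1 window held 3 matches, at bases -149 to -144 on the minus strand and at -95 to -90 and -76 to -71 on the plus strand, counted from the start site, and none overlapped another. The LRP5 window held none. Of 35116 windows of the same length in the reference, 22.8% held at least 1 such match and 0.58% held 3 or more. Neither window held the STAT pattern of TTC and GAA on 1 strand with 4 or with 3 bases of any kind between them, which reads the same on both strands and was present in 5.4% and 6.6% of windows. The windows were 62.8% G and C for DKK1 and 87.2% for LRP5, against a median of 58.0%. These matches are letters in a window, and no binding was measured.

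The labels were checked against the targeted gene and against genes known to respond to IL-13. IL13RA2 was lower in shIL13Rα2 than in shSCR cells by 1.65 log2 units under mock treatment (limma, adjusted p = 0.0105) and by 1.16 with IL-13 (adjusted p = 0.0241), and IL-13 raised it in both lines, so that its mean in IL-13-treated knockdown cells, 8.19, lay near the 8.08 of mock shSCR cells. Across both lines IL-13 raised SERPINB3 by 3.58, SERPINB4 by 4.17 and CCL26 by 1.27 (adjusted p of 4.53e-06, 1.19e-05 and 0.0032). By line, the difference of CCL26 was 1.69 in shSCR cells (adjusted p = 0.0131) and 0.85 in knockdown cells (adjusted p = 0.187). A list of 8 epithelial markers held KRT5, KRT14, KRT17, KRT6A, EGFR and ITGA6, with CDH1 and EPCAM, which are not particular to basal cells. Its mean log2 level lay between 8.99 and 9.27 on all arrays, with single genes from 6.67 (EGFR) to 12.10 (ITGA6). With IL-13, KRT5 and KRT6A each read 0.29 lower (limma, adjusted p of 0.456 and 0.358), and only ITGA6 read higher, by 0.05. Their part in the results was not tested. Of 4 luminal markers, the hormone receptor genes ESR1 and PGR did not exceed 4.40 and 3.45. The transcription factor genes GATA3 and FOXA1 lay at 7.79 to 8.32 and 6.98 to 7.50. GATA3 differed by 0.48 between knockdown cells with IL-13 and mock shSCR cells (adjusted p = 0.210), and its part in the results was not tested. None of 24 cell type markers passed an adjusted p of 0.05 in a comparison. Among the markers of other cell types, PTPRC and DCN did not exceed 2.71 and 3.13. The endothelial marker PECAM1, at 7.71 to 8.82, differed by -0.52 with IL-13 (adjusted p = 0.0938) and by 0.53 with the knockdown (adjusted p = 0.0615), and its list of 3 genes averaged 5.55 to 5.64 in mock shSCR, 5.29 to 5.48 in IL-13-treated shSCR, 5.84 to 5.87 in mock knockdown and 5.54 to 5.58 in IL-13-treated knockdown cells. Its part in the results on the members was not tested. Array medians ran from 5.02 to 5.06.

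DKK1 was lower in each group exposed to IL-13, to the hairpin against IL13RA2, or to both. Its log2 values were 9.97 and 9.97 in mock shSCR cells, 9.49 and 9.52 in shSCR cells with IL-13, 9.53 and 9.56 in mock knockdown cells, and 8.84 and 8.78 in knockdown cells with IL-13. The mock shSCR pair stood highest and the pair with both treatments lowest. In RNA from whole cultures, fewer cells that express a gene and less RNA per cell cannot be told apart. The means of the groups given IL-13 alone and the knockdown alone, 9.50 and 9.54, lay closer together than the standard error of a difference between groups, which was 0.098.

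**Figure D1:**
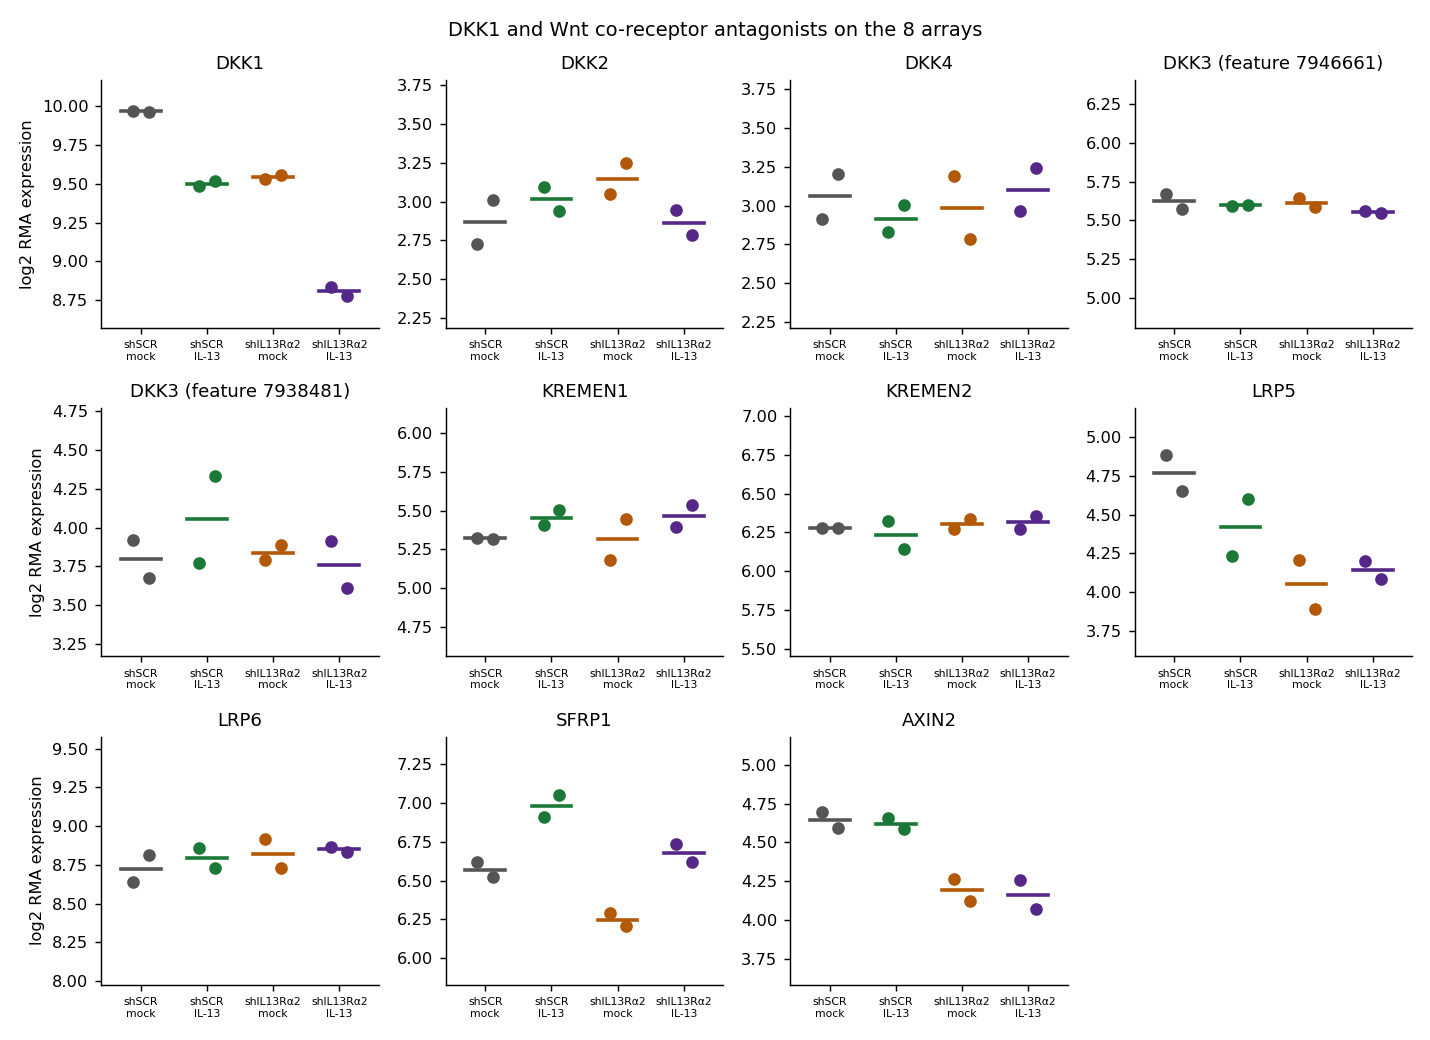
Log2 RMA expression (vertical axis, a span of 1.6 log2 units in every panel) of the 11 features of the 10 members in the 4 groups; points are single arrays and bars the means of 2 arrays. DKK1 steps from 9.97 in mock shSCR cells to 8.81 in knockdown cells with IL-13, while KREMEN2 and LRP6 stay level.

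With IL-13 the DKK1 value fell by 0.47 log2 units in shSCR cells, which is 1.38-fold, and fell by 0.74 in knockdown cells, or 1.67-fold. Between lines it was lower in the knockdown cells, by 0.43 under mock treatment, or 1.34-fold, and by 0.70 with IL-13, or 1.62-fold. With both, DKK1 lay 1.16 below mock shSCR cells, which is 2.24-fold. These differences share arrays and are given as a description. DKK1 was the 1 member of 10 past an adjusted p of 0.05 and a 2-fold difference in that comparison, taken as the one that chose it, against 0.154% of all features. Outside the thresholds, LRP5 was nearest by fold (1.54-fold lower, adjusted p = 0.302) and AXIN2 by adjusted p (1.40-fold lower, 0.243). Without array 1, 2, 7 or 8, each of which leaves a group with 1 array assumed to vary like the others, DKK1 was not called and the count was 0 of 10. It was also 0 with limma on the 4 arrays compared alone and with the methods' one-way test after adjustment.

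The size of the IL-13 response in both lines can be compared through the interaction. The sum of the 2 single differences of DKK1 was -0.89, and the difference with both was -1.16. The interaction, that is the IL-13 effect in knockdown cells minus that in shSCR cells, was -0.27 with a standard error of 0.14 and an interval from -0.59 to 0.05 (limma, adjusted p = 0.989). A larger response in the knockdown cells was therefore not resolved, and the interval leaves room both for a sum of the single effects and for a response that is 0.59 larger. No member had an unadjusted p under 0.05 for the interaction (0 of 10, against 4.47% of features), and 0% of all features passed the adjusted threshold for it.

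In the 4 single comparisons no member passed an adjusted p of 0.05 with a 2-fold difference. The share of features that did was 0.0583% for IL-13 in shSCR cells, 0.0618% for IL-13 in knockdown cells, 0.0652% for the knockdown under mock treatment and 0.0515% for the knockdown with IL-13. Averaging over the other factor gives each effect on 8 arrays. At the same thresholds 0 of 10 members passed for the mean IL-13 effect and 0 of 10 for the mean knockdown effect, against 0.0927% and 0.0755% of features. On the adjusted p alone 0 of the 9 members other than DKK1 passed for either effect, against 0.233% for IL-13 and 0.446% for the knockdown. For DKK1 itself, described only, the mean differences were -0.60 for IL-13 and -0.56 for the knockdown, each with a standard error of 0.070.

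**Figure D2:**
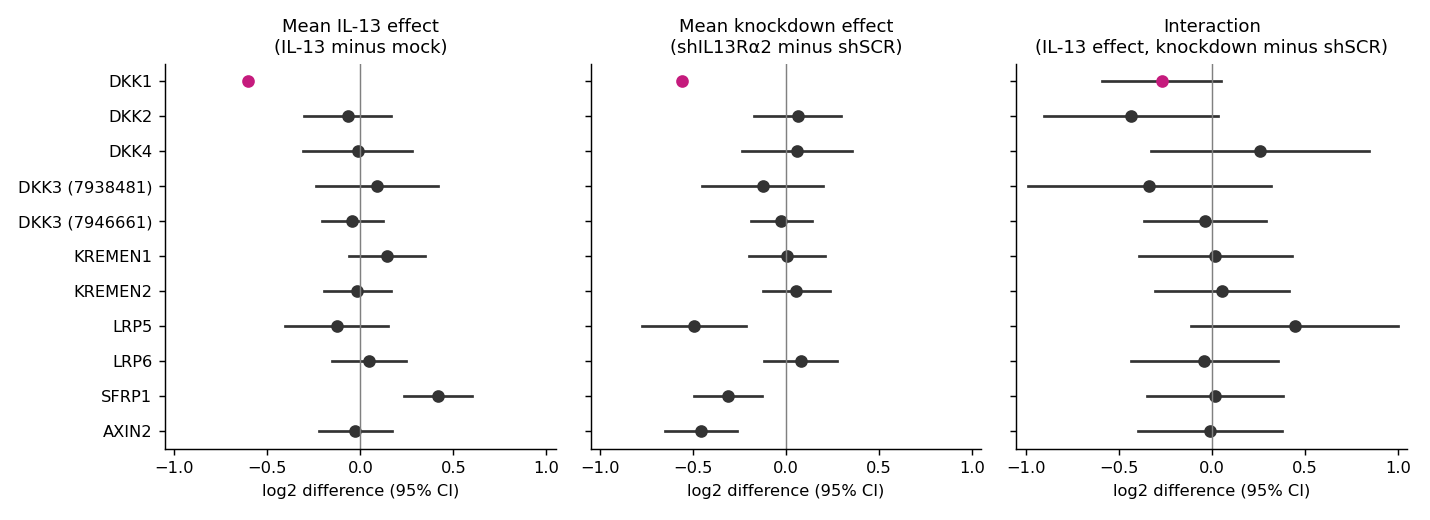
Log2 difference (horizontal axis) of each member feature for the mean IL-13 effect, the mean knockdown effect and the interaction; points are limma estimates from 8 arrays, lines 95% confidence intervals, and the coloured point is DKK1, drawn without an interval for the mean effects because their sum is the difference it was taken to be selected on. The intervals that leave out 0 are those of SFRP1 for IL-13 and of LRP5, SFRP1 and AXIN2 for the knockdown, and all interaction intervals include 0.

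None of the other Dickkopf genes had an unadjusted p under 0.05 for either mean effect. DKK2, like DKK1 a ligand of LRP5 and LRP6, ranged from 2.72 to 3.25 over the 8 arrays. Its mean IL-13 difference was -0.07 (interval -0.30 to 0.17; limma, adjusted p = 0.90). Its mean knockdown difference was 0.06 (-0.17 to 0.30; adjusted p = 0.862). By line, the IL-13 difference of DKK2 was 0.15 in shSCR cells and -0.28 in knockdown cells. That interaction of -0.43 (-0.90 to 0.03) had an adjusted p of 0.989. DKK4, also a ligand of LRP5 and LRP6, ranged from 2.78 to 3.24, with mean differences of -0.01 (-0.31 to 0.28) and 0.06 (-0.24 to 0.35). Of the 2904 negative control features on the arrays, 26.4% and 27.4% had a lower mean than DKK2 and DKK4, so a change in either could have been missed. The share was 44.2% to 80.1% for the other members apart from LRP6 (92.8%) and DKK1 (94.7%). DKK3, the divergent member of the family that does not act on LRP5 and LRP6 in the same way, was read by feature 7946661 at 5.55 to 5.67 and by feature 7938481 at 3.61 to 4.33. The brighter feature gave a mean IL-13 difference of -0.04 (-0.21 to 0.12) and a mean knockdown difference of -0.02 (-0.19 to 0.14). The dimmer feature gave 0.09 (-0.24 to 0.42) and -0.13 (-0.45 to 0.20). The means of the brighter feature were, like those of DKK1, highest in mock shSCR cells (5.62) and lowest with both treatments (5.55), within a difference of -0.07 (-0.30 to 0.16).

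The Dickkopf receptors and LRP6 had no unadjusted limma p under 0.05 in any comparison. KREMEN1 lay between 5.18 and 5.54 and KREMEN2 between 6.15 and 6.36. Their mean IL-13 differences were 0.14 (interval -0.06 to 0.35) and -0.02 (-0.20 to 0.16), and their mean knockdown differences 0.00 (-0.20 to 0.21) and 0.05 (-0.13 to 0.23). LRP6, one of the pair of co-receptors that DKK1 blocks, lay between 8.64 and 8.92, with a mean IL-13 difference of 0.05 (-0.15 to 0.25) and a mean knockdown difference of 0.08 (-0.12 to 0.28; limma, adjusted p = 0.784). For these 3 genes the intervals leave out a mean change of more than 0.35 in either direction.

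LRP5, the other co-receptor, read lower in the knockdown cells, also short of the threshold. Its values were 4.89 and 4.65 in mock shSCR cells, 4.23 and 4.60 with IL-13, 4.21 and 3.89 in mock knockdown cells, and 4.20 and 4.09 in knockdown cells with IL-13. All 4 knockdown arrays lay below all 4 shSCR arrays, with array 3 nearest to them, and the pair of shSCR arrays with IL-13 lay farther apart than the pair of any other group. The mean knockdown difference was -0.50 (standard error 0.12; limma, adjusted p = 0.185). It was -0.72 under mock treatment and -0.27 with IL-13, and the difference between those, the interaction of 0.44 (interval -0.11 to 1.00), had an adjusted p of 0.989. LRP5 was near the middle of the negative controls, 53.0% of which were dimmer.

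SFRP1, which binds Wnt ligands outside the cell, read higher with IL-13 and lower with the knockdown, both short of the threshold. It read 6.62 and 6.52 in mock shSCR cells, 6.91 and 7.05 with IL-13, 6.29 and 6.21 in mock knockdown cells, and 6.74 and 6.62 in knockdown cells with IL-13. Within each line both IL-13 arrays lay above both mock arrays, and under each treatment both knockdown arrays lay below both shSCR arrays. Pairs of 2 arrays can separate at small differences too, as the brighter DKK3 feature did with IL-13 in knockdown cells, at -0.06. The mean IL-13 difference was 0.42 (standard error 0.079; limma, adjusted p = 0.145), or 1.34-fold, and the mean knockdown difference was -0.31 (adjusted p = 0.204). The IL-13 differences were 0.41 and 0.43 in the 2 lines, and with both treatments SFRP1 lay 0.11 above mock shSCR cells (interval -0.15 to 0.37), where the groups overlapped. With a robust variance prior that follows intensity the adjusted p for IL-13 was 0.0358, and over all alternatives it ran from 0.0358 to 0.400.

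AXIN2, the scaffold protein that helps to destroy β-catenin and is widely used as a readout of Wnt signalling, read lower with the knockdown, short of the threshold, and level with IL-13. Its values were 4.70 and 4.59 in mock shSCR cells, 4.66 and 4.59 with IL-13, 4.27 and 4.12 in mock knockdown cells, and 4.26 and 4.07 in knockdown cells with IL-13. The 4 knockdown arrays, none above 4.27, did not overlap the 4 shSCR arrays, none below 4.59. The mean knockdown difference was -0.46 (standard error 0.084; limma, adjusted p = 0.0905), or 1.37-fold, with -0.45 under mock treatment and -0.46 with IL-13. The mean IL-13 difference was -0.03 (interval -0.22 to 0.17). The adjusted p for the knockdown fell to 0.0436 when the dimmest 30% of features were left out and ran to 0.280 without 1 array. AXIN2 too was near the middle of the negative controls, with 53.6% of them dimmer.

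Counted over the 9 members other than DKK1, 3 had an unadjusted p under 0.05 for the mean knockdown effect (LRP5, AXIN2 and SFRP1, all lower), against 11.3% of all features. For the mean IL-13 effect it was 1 of 9 (SFRP1, higher), against 8.73%. The median difference of the 9 was 0.00 for the knockdown and -0.02 for IL-13, beside medians of -0.01 and 0.01 over all features. The members were picked with results of these arrays known, so their counts are a description.

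The rest of the pathway was read from 87 further Wnt genes. In no comparison did 1 of them pass an adjusted p of 0.05 with a 2-fold difference. On the adjusted p alone, 1 of 87 passed for the mean knockdown effect, against the 0.446% of features given above. This was FZD6, a Frizzled receptor known mainly for planar cell polarity and β-catenin-independent signalling. Its values were 8.67 and 8.52 in mock shSCR cells, 8.57 and 8.37 with IL-13, 7.74 and 7.82 in mock knockdown cells, and 7.86 and 7.83 in knockdown cells with IL-13. Every knockdown array lay below every shSCR array, and the mean difference was -0.72 (standard error 0.084; limma, adjusted p = 0.0186), or 1.64-fold. Leaving out any 1 of the 8 arrays kept the difference between -0.77 and -0.67 and took the adjusted p to between 0.0678 and 0.102.

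By role, the median mean knockdown difference was small for the 19 Wnt ligands (0.00), the 13 receptors (0.04), the 9 genes of the R-spondin axis (-0.02), the 11 other extracellular antagonists (-0.01), the 13 genes of the destruction complex and its transduction (-0.08) and the 9 targets (0.02). It was 0.13 for the 9 nuclear factors and -0.13 for the 3 genes of secretion and chaperones, which lay between -0.14 and -0.12, and the other DKK1 receptor, CKAP4, differed by -0.12. An unadjusted p under 0.05 was found for 5 of 87, a share below the 11.3% of all features, of which FZD6 and EPHB2 were lower and LEF1, WNT3 and LGR4 higher. LEF1, a DNA-binding partner of β-catenin, had group means of 4.93 and 4.73 in shSCR cells and 5.22 and 5.38 in knockdown cells, a mean difference of 0.47 (limma, adjusted p = 0.117). EPHB2, an ephrin receptor known as a β-catenin target in the intestine, differed by -0.40 (adjusted p = 0.230). The ligand WNT3 and the R-spondin receptor LGR4, named after their values were seen, differed by 0.19 and 0.17.

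For the mean IL-13 effect 1 of 87 had an unadjusted p under 0.05, a share below the 8.73% of all features. It was MYC, a growth regulator and β-catenin target, with a difference of 0.24 (limma, adjusted p = 0.530). The next were the transcription factor TCF7L1 at -0.19 and the receptor FZD5 at 0.18, with adjusted p of 0.575 and 0.585. None of the 11 other extracellular antagonists of Wnt, the genes closest to the members in role, had an unadjusted p under 0.05 for either effect, with IL-13 differences from -0.18 to 0.26.

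**Figure D3:**
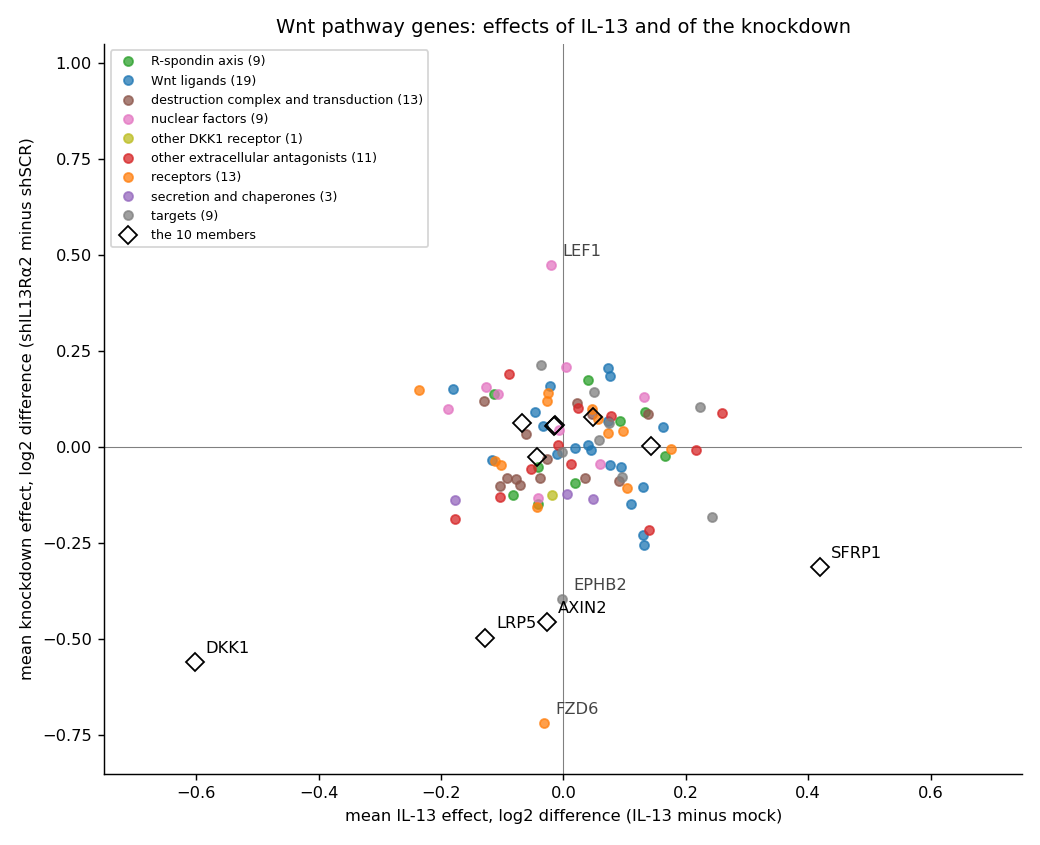
Mean IL-13 effect (horizontal axis) against mean knockdown effect (vertical axis), both log2 differences, for 87 Wnt pathway genes coloured by role and for the 10 members as open diamonds, with the brightest feature per gene. DKK1 lies at -0.60 and -0.56 and SFRP1 at 0.42 and -0.31, while FZD6, AXIN2 and LRP5 lie low on the vertical axis and most other genes lie near 0.

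The features most like DKK1 over the 8 arrays were sought among 1712 whose group means spanned at least 0.5. The 5 named genes with the highest Pearson correlation were TGM4, a transglutaminase (r = 0.983), TP53I3, an oxidoreductase known as a p53 target (0.968), KRT6B, a stress keratin of stratified epithelium (0.966), TDRKH, a Tudor domain protein (0.964) and LCN2, lipocalin 2, an iron-siderophore carrier (0.961). The arrays fall into 4 groups, so these values mostly compare group means. All 5 had their highest mean in mock shSCR cells and their lowest in knockdown cells with IL-13. That order largely follows from their choice by correlation with DKK1. From the first to the last group TP53I3 went from 6.69 to 5.93, KRT6B from 9.02 to 8.28 and TGM4 from 5.40 to 4.83, which are smaller spans than that of DKK1.

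Among the members, AXIN2 was nearest to DKK1 with r = 0.69, followed by the brighter DKK3 feature with 0.66 and LRP5 with 0.63. KREMEN1 and LRP6, which had no unadjusted limma p under 0.05 in any comparison, had r of -0.50 each, and SFRP1 had r = -0.17. None of these exceeded 0.9, and each rests on 8 arrays that share their groups.

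**Figure D4:**
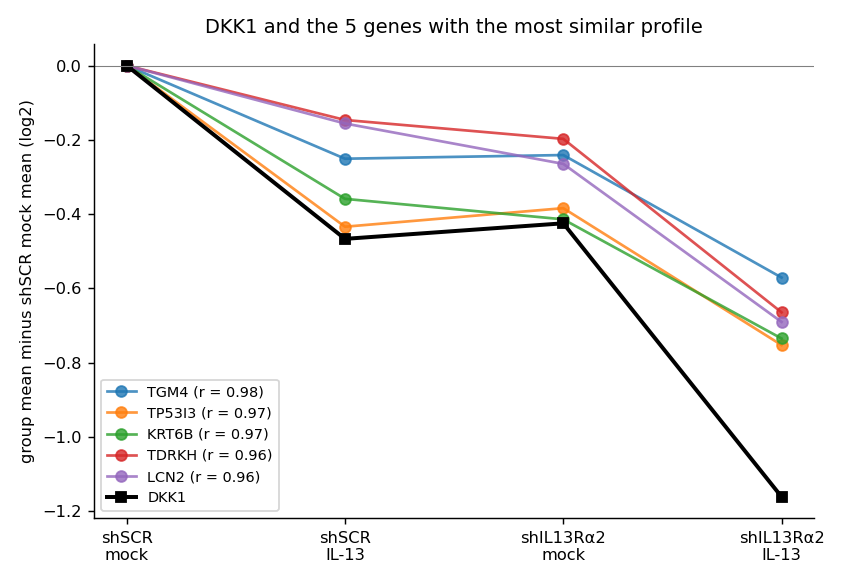
Group mean minus the mean of mock shSCR cells (log2, vertical axis) for DKK1 and the 5 genes with the highest correlation with it, over the 4 groups of 2 arrays. All 6 are lower in the other 3 groups and lowest in knockdown cells with IL-13, where DKK1 lies 1.16 below its starting value. The 5 genes were chosen by their correlation with DKK1, so the shared order largely follows from that choice.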

How the data were processed

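Expression was measured in 8 samples on Affymetrix GeneChip Human Exon 1.0ST arrays, as the study names them. The authors deposited log2 values, 1 per gene-level feature and array, made with RMA in Affymetrix Expression Console (background correction, quantile normalization and probe summary), and RMA draws values together across arrays and compresses changes of dim genes. These values were used as they stood, and the hairpin and treatment in each column heading gave its group. Of 33297 features, 4156 controls and spike-ins were left out and 29141 were tested, of which 7064 had no symbol.

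Differences were fitted with limma 3.58.1 in R 4.3.3 over all 8 arrays and 4 groups, with 4 residual and 3.86 prior degrees of freedom, and adjusted by Benjamini-Hochberg over all features. A call needed an adjusted p under 0.05 and a fold change above 2 (for the interaction, the adjusted p alone). The study's methods name 2 biological replicates per group, and p-values measure only the spread between these arrays. The fit was tested on simulated data. The authors' one-way analysis of variance, other thresholds, filters, normalizations and priors, and leaving out each array were alternatives.

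The members, the lists of Wnt genes and markers, and the tests were chosen with earlier results of these data known. Named genes were all members, Wnt genes with an adjusted p under 0.05 in an effect and otherwise the 3 with the smallest p in each mean effect, the 5 named genes with the highest Pearson correlation with DKK1 among features whose group means spanned at least 0.5, and IL13RA2, SERPINB3, SERPINB4 and CCL26 as a check. Promoter windows were matched by symbol to RefSeq. Where a gene had several features, the brightest stood for it in counts.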

Additional observations from a re-analysis of the deposited data

How the results depend on the processing

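In the comparison of knockdown plus IL-13 with mock shSCR cells, the number of members called was 1 (DKK1). It was 0 to 1 when 1 array was left out, 0 for limma on the 4 arrays compared and 0 for the methods' one-way test with adjustment, and the cause was not tested. For the mean IL-13 effect the count of 0 became 1 (DKK1) with a fold threshold of 1.5. It was also 1 with no fold threshold, against 0.233% of all features, a share that a fold threshold can only lower. For the mean knockdown effect the count of 0 became 1 (DKK1) with no fold threshold, against 0.446% of all features. DKK1 was selected on these same arrays. The sum of both mean effects is the comparison taken to have selected it, so these counts only describe DKK1. Among 87 Wnt genes the count of 0 for the mean knockdown effect became 1 (FZD6) with a fold threshold of 1.5. It was also 1 without one, against 0.446% of all features, a share that a fold threshold can only lower. The count of 0 for the interaction became 2 (PYGO2 and FZD4) without adjustment, a share below the 4.47% of all features. The other counts of members and of Wnt genes did not move. The 20 member differences with an unadjusted p under 0.05 were picked on these same arrays. Their groups did not overlap, so leaving out 1 array or changing the prior could not reverse them. That their direction was kept in all 288 combinations with an alternative is therefore no test of them. In the 254 that kept an adjusted p, 21 differences past the threshold no longer passed it and 7 short of it passed.

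A group from which 1 array was left out rests on 1 array assumed to vary like the other groups. Each group had 2 arrays, so small changes can be missed. Every member had a mean below the 95th percentile of the negative controls. Those controls reach as high as bright genes, so that percentile does not mark a floor. Among all features tested, 95.1% had a lower mean than DKK1 and 92.0% a lower mean than LRP6. The 4-array fit and the methods' test were not run for the mean effects and the interaction. How many of all features separate by array as LRP5, SFRP1, AXIN2 and FZD6 do was not counted, so their separation is a description. No paired analysis was possible because the column headings do not carry the sample numbers of the labels.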
